A study of Mus musculus with 8 samples.

Results

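Receptors through which macrophages take up modified lipoproteins, microbes and dying cells were followed in bulk RNA sequencing of mouse bone marrow-derived macrophages (BMDMs), cells grown from marrow progenitors in culture. The set held 10 genes, picked by gene name out of the 54532 rows of the count table. They were the scavenger receptors Msr1, Marco, Cd36, Scarb1, Stab1 and Cd68, the lysosomal Scarb2, the apoptotic-cell receptors Mertk and Axl, and the soluble ligand Gas6. All 10 passed the low-count filter that left 12234 genes for testing, although Marco had at least 10 reads only in control replicate 3 and in the 4 libraries that received LPS.

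The 4 groups were control cells with no stimulus, cells given the bacterial product lipopolysaccharide (LPS) at 100 ng/ml over 4 h, cells given the type 2 cytokine interleukin 4 (IL-4) at 20 ng/ml over 24 h, and cells given that IL-4 exposure, washed, and then given that LPS exposure. The last group is called IL-4 then LPS. Each group had 2 libraries, numbered 1 and 3. Strain, sex and age of the mice, and whether libraries with different numbers came from different mice, are not stated in the labels. Reads of Xist and Ddx3y, given at the end, mark the libraries numbered 1 as female and those numbered 3 as male in every group.

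Scavenger receptors are an assorted group of surface proteins that bind polyanionic and lipid ligands such as oxidised lipoprotein and bacterial wall material. Mertk and Axl are receptor tyrosine kinases that do not touch the dying cell themselves: Gas6, or for Mertk also the related protein S, binds phosphatidylserine on the dying cell and bridges it to the kinase. Mertk is best known in macrophages for the clearance of apoptotic cells and Axl as a receptor that inflammatory signals induce, and both are also known to restrain Toll-like receptor signalling.

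Library totals ran from 7924932 to 9431852 counts, of which the 10 genes together took 0.333% to 0.415%. All 9 macrophage markers listed, among them Adgre1, Csf1r and Lyz2, had reads in every group. The lymphocyte marker list reached 22.0 CPM (reads of the gene scaled to a common library size) in one LPS library through Lck, with Cd3e, Cd3d and Cd79a at 0 reads in all 8 libraries. The endothelial list went from 22.5 to 60.7 CPM in control libraries to 133 to 153 CPM in LPS libraries mostly through Kdr; 2 of its 3 tested markers, Kdr and Cdh5, were called higher, Cdh5 going from 0.4265 to 2.65 CPM, and Tek, Emcn and Cldn5 had 0 reads throughout. The stromal list went from 4.15 to 6.23 CPM in control libraries to 18.3 to 47.1 CPM in LPS libraries mostly through Pdgfrb, and Col3a1 and Lum had 1 read each in all. Dendritic cell markers, among them Xcr1, Zbtb46 and Ccr7, summed to 1.21 to 1.58 CPM in control and 7.46 to 12.7 in LPS libraries, and to 1.27 to 2.05 in IL-4 and 8.95 to 13.7 in IL-4 then LPS libraries, with 2 and 3 of their 3 tested members called higher after LPS in the respective arms. Neutrophil and granulocyte precursor markers summed to at most 7.60 CPM, mast cell, basophil and eosinophil markers to at most 18.5 and erythroid markers to at most 0.276. The part of these lists in the LPS results was not tested.

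LPS raised the class A receptors Msr1 and Marco and the kinase receptor Axl, and lowered Scarb1, the receptor for high-density lipoprotein. In cells exposed to IL-4 beforehand LPS raised Msr1, Marco, Axl and Mertk and again lowered Scarb1. Mertk also lay 2.84-fold higher after LPS without IL-4, which the test without a replicate term did not call and DESeq2 or a replicate block did. With IL-4, Cd36 lay 1.93-fold higher and Stab1 and Gas6 2.0-fold and 2.02-fold lower than in control cells, differences that the test without a replicate term called only when both IL-4 comparisons were averaged, and that a model with the replicate number as a block, or DESeq2, called in each. Cd68 stayed within the spread of the libraries in every group at this scaling.

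**Figure D1:**
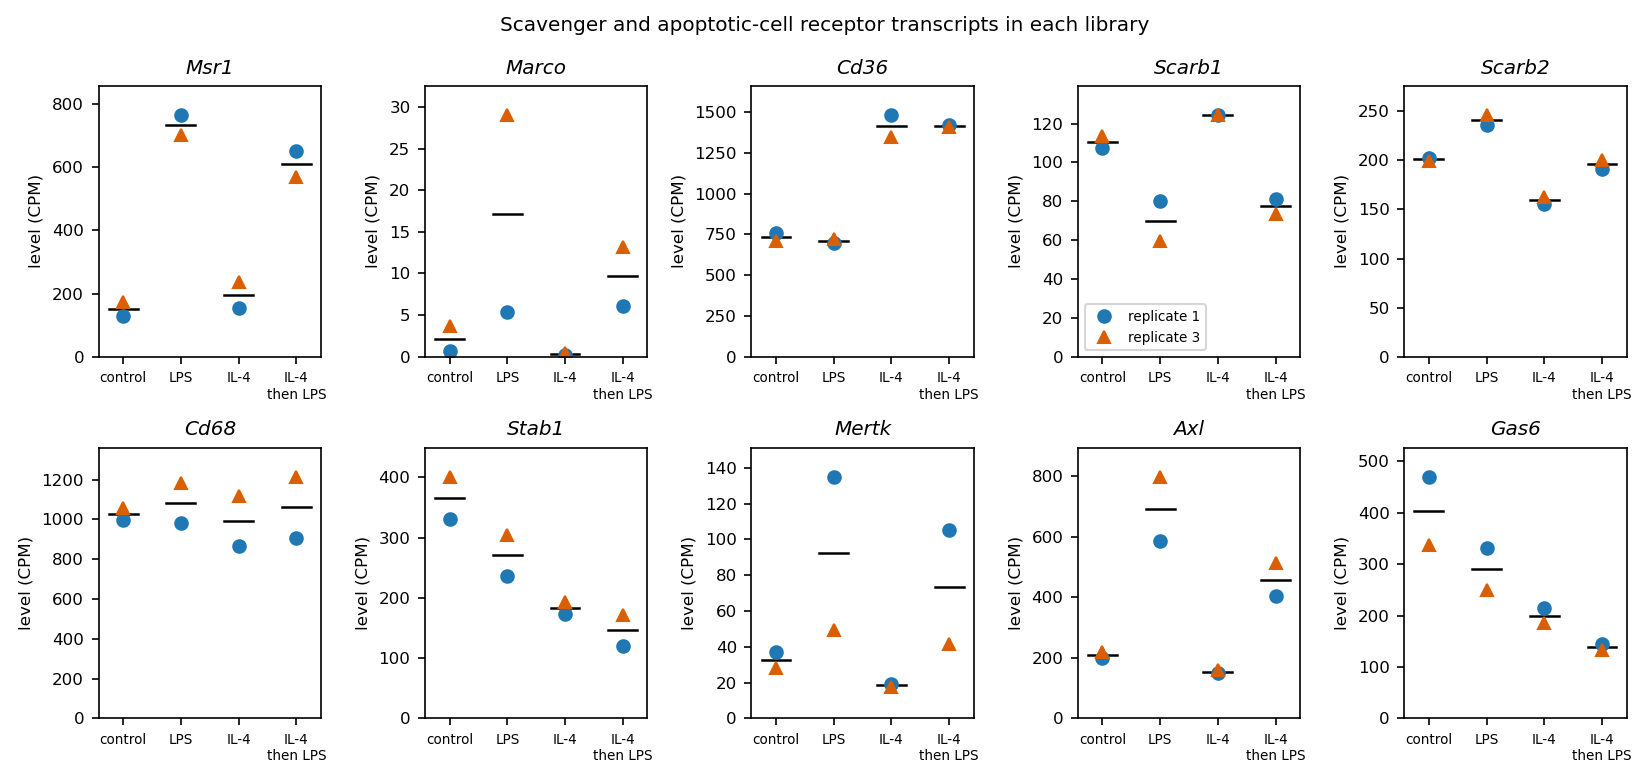
Level of each of the 10 genes in each library (y axis, CPM, starting at 0) in the 4 groups (x axis); circles are replicate 1, triangles replicate 3 and bars the group mean of 2 libraries. Msr1 lies between 130 and 237 CPM without LPS and between 568 and 765 CPM with it, and Cd36 between 697 and 756 CPM without IL-4 and between 1349 and 1481 CPM with it.

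Per kilobase of transcript, the scale on which genes can be set beside each other, control cells held most Cd68 at 817 ± 31.9 CPM per kilobase (SD, n = 2 here and below). Cd36 followed at 204 ± 9.0 and Gas6 at 158 ± 37.2. A middle group was made of Axl at 41.5 ± 2.95, Stab1 at 35.5 ± 4.88, Scarb2 at 32.0 ± 0.413 and Msr1 at 24.0 ± 4.88 CPM per kilobase. Scarb1 at 13.0 ± 0.510, Mertk at 7.48 ± 1.45 and Marco at 1.13 ± 1.09 closed the order. Among neighbours in this order, only the libraries of Stab1 and Scarb2 overlapped. After LPS, Axl at 138 ± 30.1 and Msr1 at 116 ± 6.90 CPM per kilobase had come up to the level of Gas6 at 114 ± 22.4, and the libraries of these 3 genes overlapped.

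**Figure D2:**
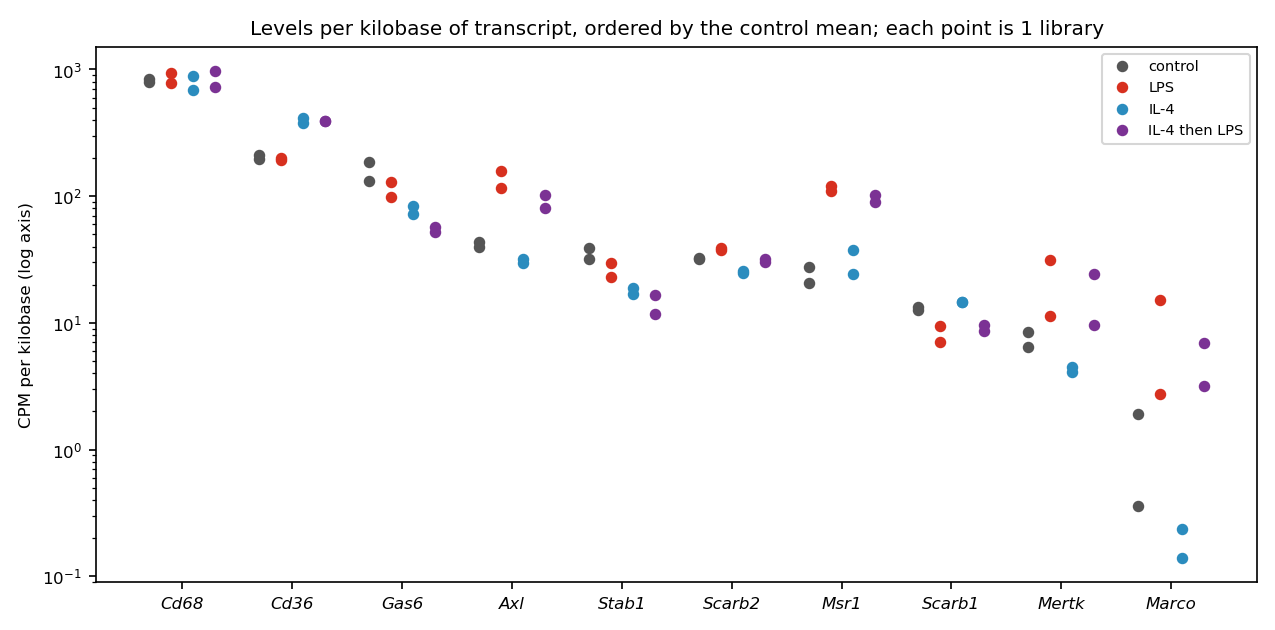
Level per kilobase of transcript (y axis, log scale) of the 10 genes (x axis, in the order of their control means), with 1 point per library coloured by group. Msr1 and Axl move from the middle of the order up to the level of Gas6 in the LPS libraries, while Marco stays lowest or close to Mertk and Scarb1.

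Levels from here on are CPM after scaling of the library totals by edgeR's TMM method, and a gene is called when its adjusted p (edgeR quasi-likelihood test, Benjamini-Hochberg over all 12234 genes) is under 0.05. LPS against control called 3 of the 10 genes higher and 1 lower, 40% in all, beside 21.8% of all tested genes called higher and 18.6% called lower. The share of receptors called was thus close to that of all genes. In IL-4-exposed cells the same step called 4 higher and 1 lower, beside 20.7% and 18.6% of all genes. The median log2 difference of the 10 genes was 0.17 and 0.20 in these comparisons, beside -0.01 and -0.04 over all tested genes. These values depend on the scaling: with library totals alone the median of all genes after LPS moved to -0.615 without IL-4 and -0.56 after it, and the share of calls that were higher went from 53.9% to 21.2% and from 52.8% to 22.5%. With upper-quartile factors those medians were -0.28 and -0.28 and those shares 36.6% and 36.0%. With the replicate number as a block, 8 of the 10 genes were called in each arm, 5 higher and 3 lower, beside 53.7% and 51.8% of all genes; Mertk, Scarb2, Stab1 and Gas6 are the genes whose call it changed in one arm or both.

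Msr1 encodes a class A receptor that binds modified low-density lipoprotein and bacterial lipids; the gene lies at chr8:39581685-39642673 on the minus strand (mm10). Its level was 130 and 174 CPM in control replicates 1 and 3, 765 and 703 in LPS, 155 and 237 in IL-4 and 649.5 and 568 in IL-4 then LPS. All 4 libraries with LPS lay above all 4 without it, and the control and IL-4 libraries overlapped. Msr1 rose 4.83-fold after LPS (log2 2.27 ± 0.24 SE, adjusted p = 0.000243) and 3.11-fold after LPS in IL-4-exposed cells (1.64 ± 0.24, adjusted p = 0.00122). The difference between these responses was -0.64 on the log2 scale with a 95% interval from -1.39 to 0.12. In bulk libraries, fewer cells with the transcript and less transcript per cell cannot be told apart, for this gene and all others.

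Marco, a class A receptor for bacteria and particles (chr1:120474538-120505024, minus strand), had the fewest reads of the 10 genes in every group; per kilobase, LPS replicate 3 at 15.1 lay above the same library's Mertk at 11.4 and Scarb1 at 7.02. It gave 8 and 37 reads in control replicates 1 and 3, 38 and 210 in LPS, 3 and 5 in IL-4 and 42 and 102 in IL-4 then LPS. In CPM these were 0.692 and 3.66, 5.32 and 29.0, 0.268 and 0.453, and 6.13 and 13.2. Replicate 3 was the higher library in every group, and the groups with LPS did not overlap their counterparts without it. Marco rose after LPS (log2 3.0 ± 0.92, adjusted p = 0.0333) and after LPS in IL-4-exposed cells (4.70 ± 1.16, adjusted p = 0.0148), where the fold rests on 8 reads in the IL-4 group. The call after LPS was lost without control replicate 1 (log2 2.17, adjusted p = 0.156) and without LPS replicate 3 (1.31, adjusted p = 0.303), and with library totals alone (adjusted p = 0.0501). In the IL-4 arm it was lost without IL-4 replicate 1 (adjusted p = 0.0829), without IL-4 replicate 3 (0.0621) or without IL-4 then LPS replicate 3 (0.0696). Within a replicate number the response was alike, 2.94 and 2.99 on the log2 scale in replicates 1 and 3 without IL-4, and 4.52 and 4.87 after it.

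Cd36, a class B receptor for oxidised lipoprotein, fatty acids and apoptotic cells, separated the libraries by IL-4, as did Stab1 and Gas6 in the other direction. It lies at chr5:17781690-17888801 on the minus strand. Its level was 756 and 710 CPM in control replicates 1 and 3, 697 and 722 in LPS, 1481 and 1349 in IL-4 and 1417 and 1408 in IL-4 then LPS. Every library with IL-4 lay above every library without it, and LPS left no separation in either arm. The difference was 1.93-fold with IL-4 alone (log2 0.95 ± 0.14, adjusted p = 0.106) and 1.99-fold before LPS (0.99 ± 0.14, adjusted p = 0.102), neither of them called. With the replicate block both were called (adjusted p = 0.00369 and 0.00360). The LPS differences were -0.05 (95% interval -0.37 to 0.28) without IL-4 and -0.0026 (-0.33 to 0.32) after it. With library totals alone Cd36 was called lower after LPS, at -0.65 (adjusted p = 0.00511) and -0.53 (0.0136).

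The bases before the annotated start of Cd36 are shown because it was the one gene called higher in the average of both IL-4 comparisons given further on; the window, chr5:17835897-17836146 on the minus strand of GRCm38.p6, lies within the gene's span and outside its annotated exons. This and the windows further on are 250 bases long and come from RefSeq, printed in lower case with nothing marked.
Cd36: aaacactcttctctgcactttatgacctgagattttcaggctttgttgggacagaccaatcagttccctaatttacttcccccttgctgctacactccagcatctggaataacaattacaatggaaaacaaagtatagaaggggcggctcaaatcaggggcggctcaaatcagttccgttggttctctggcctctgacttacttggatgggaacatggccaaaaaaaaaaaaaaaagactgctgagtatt

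Scarb1 encodes the class B receptor that exchanges cholesterol with high-density lipoprotein (chr5:125277087-125341094, minus strand). It was the member called lower with LPS in both arms by the test without a replicate term. Stab1 and Gas6 also lay lower with LPS in both arms, and were called there with the replicate block. Its level was 107 and 113 CPM in control replicates 1 and 3, 80.4 and 59.7 in LPS, 124.2 and 124.4 in IL-4 and 81.4 and 73.4 in IL-4 then LPS. The 4 libraries with LPS all lay below the 4 without it. Scarb1 fell by 0.66 ± 0.16 on the log2 scale after LPS (adjusted p = 0.0131) and by 0.68 ± 0.16 in IL-4-exposed cells (adjusted p = 0.0113). The call after LPS was lost without LPS replicate 3 (-0.46, adjusted p = 0.0749), and that in the IL-4 arm without IL-4 replicate 3 (adjusted p = 0.0518) or IL-4 then LPS replicate 3 (0.0763). Scarb2, a class B relative that sits in the lysosome membrane and carries glucocerebrosidase there (chr5:92441314-92506833, minus strand), had 203 and 199 CPM in control, 236 and 246 in LPS, 156 and 163 in IL-4 and 192 and 201 in IL-4 then LPS. Its 4 group pairs did not overlap where they differed by 1 stimulus, yet none was called: the LPS differences were 0.26 (adjusted p = 0.112) and 0.30 (0.0795), and the IL-4 differences -0.34 (0.556) and -0.30 (0.535). With the replicate block both LPS differences were called higher (adjusted p = 0.0381 and 0.0231). With library totals alone they turned to -0.34, called lower (adjusted p = 0.0306), and -0.22 (0.125).

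Cd68, a heavily glycosylated protein of late endosomes and lysosomes used as a macrophage marker (chr11:69664213-69666153, minus strand), ran from 864 to 1215 CPM over the 8 libraries. Its groups overlapped in all 4 comparisons. The LPS differences were 0.07 (95% interval -0.41 to 0.55) and 0.10 (-0.38 to 0.58) and the IL-4 differences -0.05 (-0.53 to 0.43) and -0.03 (-0.51 to 0.45) on the log2 scale. Both LPS values turned negative with library totals alone, at -0.53, which was called lower (adjusted p = 0.0275), and -0.42 (0.0639), and with upper-quartile factors, at -0.19 and -0.15.

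Stab1, which encodes stabilin 1, a large receptor that takes up acetylated lipoprotein and the matrix protein SPARC, lay higher in cells without IL-4 (chr14:31139013-31168641, minus strand). It had 330.2 and 401 CPM in control replicates 1 and 3, 237 and 304 in LPS, 173 and 193 in IL-4 and 121 and 171 in IL-4 then LPS. The 4 libraries without IL-4 lay above the 4 with it. The IL-4 difference was -1.0 ± 0.21 without LPS (adjusted p = 0.218) and -0.89 ± 0.21 before LPS (adjusted p = 0.284), neither of them called. With the replicate block both were called (adjusted p = 0.00369 and 0.00646). The LPS differences were -0.43 (adjusted p = 0.137) and -0.33 (adjusted p = 0.261). They were called lower with the block (adjusted p = 0.00759 and 0.0262), with library totals alone, at -1.04 (0.00227) and -0.85 (0.00598), and with upper-quartile factors, at -0.70 (0.0227) and -0.58 (0.0489). Of the exon bases of Stab1, 1.09% overlap Nt5dc2 on the opposite strand, and the sources used here do not say whether reads were counted by strand.

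Axl rose with LPS in both arms (chr7:25757273-25788705, minus strand). Its level was 198 and 219 CPM in control replicates 1 and 3, 585 and 799.5 in LPS, 148.5 and 160.3 in IL-4 and 405 and 512 in IL-4 then LPS. The libraries with LPS lay above those without it, and among the libraries with LPS and among those without it the IL-4 libraries were the lower. Axl rose 3.32-fold after LPS (log2 1.73 ± 0.20, adjusted p = 0.000359) and 2.97-fold in IL-4-exposed cells (1.57 ± 0.20, adjusted p = 0.000599). The IL-4 differences, -0.44 ± 0.19 without LPS (adjusted p = 0.696) and -0.59 ± 0.19 before it (adjusted p = 0.444), were not called; with the replicate block the second was (adjusted p = 0.0371).

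Mertk moved in the same direction with LPS as Axl at a lower level (chr2:128698956-128802894, plus strand). Its level was 36.9 and 28.0 CPM in control replicates 1 and 3, 135 and 49.3 in LPS, 19.4 and 17.7 in IL-4 and 105 and 41.7 in IL-4 then LPS. All libraries with LPS lay above all without it, but replicate 1 was 2.74-fold above replicate 3 in LPS and 2.52-fold above it in IL-4 then LPS. The rise in IL-4-exposed cells was called (log2 1.98 ± 0.54, adjusted p = 0.0220) and the difference in cells without IL-4 was not (1.51 ± 0.53, adjusted p = 0.0527). DESeq2 called the latter too (adjusted p = 0.00629), as did the replicate block (log2 1.39, adjusted p = 0.00308). The call in the IL-4 arm was lost without IL-4 replicate 1 (adjusted p = 0.0815), IL-4 replicate 3 (0.0885) or IL-4 then LPS replicate 1 (log2 1.17, adjusted p = 0.134), and with library totals alone (0.0579). Within replicate 1 the LPS difference of Mertk was 1.88 without IL-4 and 2.44 after it, and within replicate 3 it was 0.82 and 1.24.

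Gas6, the ligand of both kinases, was highest in control and lowest in IL-4 then LPS (chr8:13465374-13494490, minus strand). It had 470.4 and 336 CPM in control replicates 1 and 3, 331 and 250.1 in LPS, 214 and 185 in IL-4 and 145 and 133 in IL-4 then LPS. The 4 groups did not overlap, with LPS replicate 1 just under control replicate 3. The IL-4 difference was -1.01 ± 0.21 without LPS (adjusted p = 0.206) and -1.07 ± 0.21 before it (adjusted p = 0.193), and the LPS differences were -0.47 ± 0.21 (adjusted p = 0.105) and -0.52 ± 0.21 (adjusted p = 0.0826). None of these 4 differences was called. With the replicate block all 4 were, the IL-4 differences with adjusted p = 0.00383 and 0.00403 and the LPS differences with 0.00712 and 0.00471. Both LPS differences were also called with library totals alone, at -1.08 (adjusted p = 0.00622) and -1.05 (0.00791), with upper-quartile factors, at -0.74 (0.0265) and -0.77 (0.0237), and without the low-count filter (0.0315 and 0.0175). Of the exon bases of Gas6, 1.33% overlap Tmem255b on the opposite strand.

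The windows before the starts of Mertk, Axl and Gas6 are shown together because the receptors and their ligand lay on opposite sides of their control levels after LPS. They are chr2:128698665-128698914 on the plus strand, chr7:25788734-25788983 on the minus strand and chr8:13494536-13494785 on the minus strand of GRCm38.p6, and none of them reaches into an annotated exon. They too are printed in lower case with nothing marked.
Mertk: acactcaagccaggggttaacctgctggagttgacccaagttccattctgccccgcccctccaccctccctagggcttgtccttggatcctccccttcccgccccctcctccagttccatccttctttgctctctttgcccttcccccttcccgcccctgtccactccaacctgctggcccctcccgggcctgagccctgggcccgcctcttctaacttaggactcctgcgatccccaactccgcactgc
Axl: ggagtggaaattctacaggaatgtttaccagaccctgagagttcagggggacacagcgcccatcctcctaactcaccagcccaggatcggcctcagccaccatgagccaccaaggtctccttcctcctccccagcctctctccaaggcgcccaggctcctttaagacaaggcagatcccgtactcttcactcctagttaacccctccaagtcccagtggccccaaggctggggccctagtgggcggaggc
Gas6: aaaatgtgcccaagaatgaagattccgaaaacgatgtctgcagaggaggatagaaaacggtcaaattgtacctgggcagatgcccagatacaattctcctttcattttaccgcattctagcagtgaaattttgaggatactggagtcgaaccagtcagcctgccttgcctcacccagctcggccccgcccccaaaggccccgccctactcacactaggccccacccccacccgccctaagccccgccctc

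**Figure D3:**
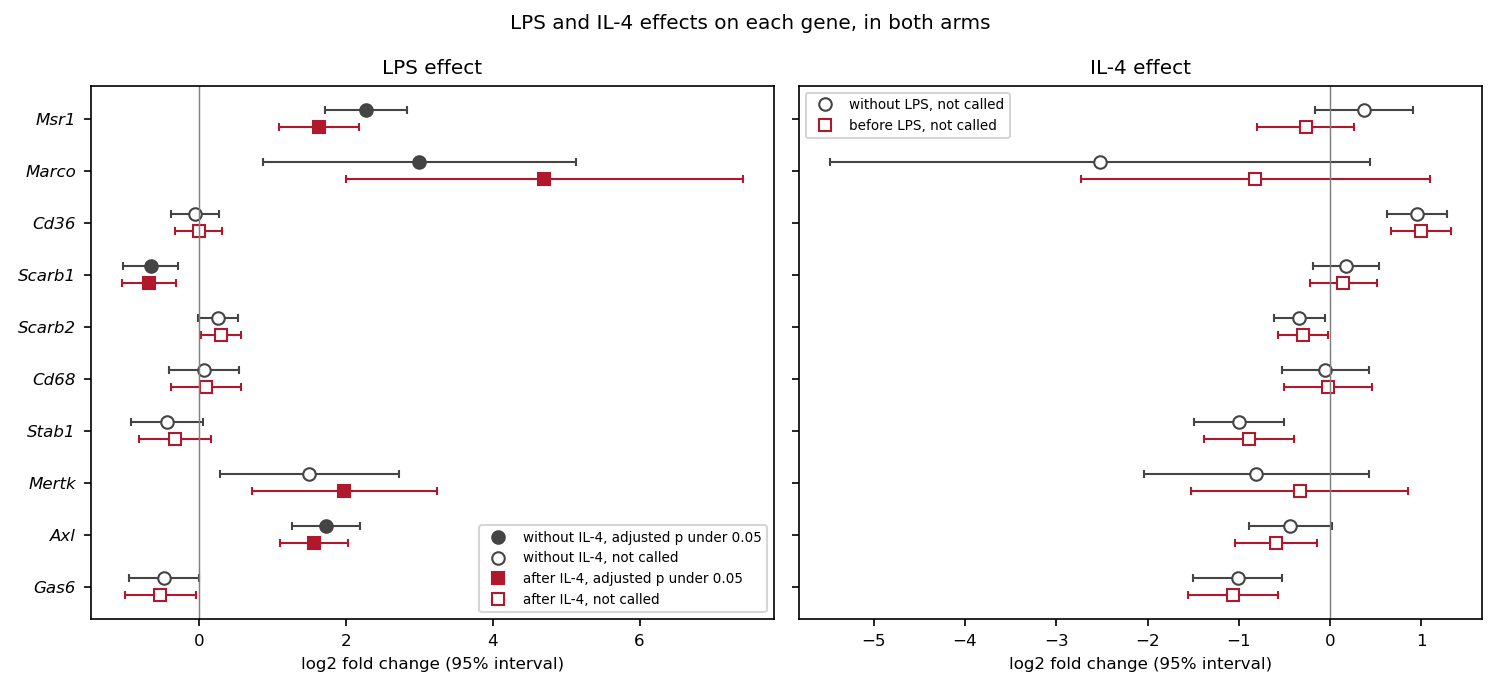
Log2 fold change of each gene with LPS (left) and with IL-4 (right), with bars for the 95% interval of the edgeR fit to all 8 libraries; circles are the comparison without the other stimulus, squares the comparison with it, and filled symbols have an adjusted p under 0.05. Msr1, Marco and Axl lie to the right and Scarb1 to the left of 0 in both LPS comparisons. Every IL-4 symbol is open, although the intervals of Cd36, Stab1, Gas6 and Scarb2 lie clear of 0 in both IL-4 comparisons. That of Axl does so in the comparison before LPS.

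IL-4 against control called 0 of the 10 genes, as did IL-4 then LPS against LPS, beside 0.0654% of all tested genes, 8 of 12234, in each of them. At an unadjusted p under 0.05 these comparisons held 4 and 5 of the 10 genes, beside 7.29% and 8.5% of all genes. DESeq2 called 1 gene higher, Cd36, and 2 lower, Stab1 and Gas6, in each comparison, with adjusted p from 5.11e-08 to 0.0329. With the replicate number as a block, Cd36 was called higher and Stab1 and Gas6 lower in each, and Axl lower in the second, beside 2.35% and 2.3% of all genes. The comparisons share no library. An average of both, which is a contrast added after they had been seen, called Cd36 higher and Stab1 and Gas6 lower, beside 0.376% of all genes called higher and 0.294% called lower. In that average Cd36 rose 1.96-fold (log2 0.97 ± 0.10, adjusted p = 0.0113), Stab1 fell by 0.95 ± 0.15 (adjusted p = 0.0457) and Gas6 fell by 1.04 ± 0.15 (adjusted p = 0.0323). With 1 library left out, Cd36 was still called in 2 of 8 fits, Gas6 in 2 of 8 and Stab1 in 0 of 8, while the log2 values ran from 0.94 to 1.0, from -1.15 to -0.92 and from -1.08 to -0.83. With the block the average also called Marco (-1.54, adjusted p = 0.0356), Scarb2 (-0.32, 0.0240) and Axl (-0.51, 0.00792) lower, beside 6.49% of all genes. Within replicates 1 and 3 the average was 1.0 and 0.94 for Cd36, -0.95 and -0.94 for Stab1, and -1.16 and -0.89 for Gas6. Its sign was the same in both numbers for 9 of the 10 genes, called or not. For Cd36, Stab1 and Gas6 it had to be, since no library with IL-4 overlapped those without it.

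The summed level of the 9 macrophage markers also differed with IL-4: it ran from 17900 to 24600 CPM in control libraries and from 20700 to 23400 in LPS libraries, against 12300 to 17000 in IL-4 libraries and 12700 to 18100 in IL-4 then LPS libraries. In the average over both arms 2 of the 9 markers were called lower and 0 higher. The part of this difference in the IL-4 results above was not tested.

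Whether prior IL-4 altered the LPS response of these genes was tested by the difference of the LPS responses. None of the 10 genes was called by edgeR (adjusted p = 1 for each), beside 0% of all tested genes, and 0 of the 10 had an unadjusted p under 0.05, as against 322 of all genes. DESeq2 called 5 genes, none of them among the 10. The interval was widest for Marco, from -1.86 to 5.27 on the log2 scale, and narrowest for Scarb2, from -0.35 to 0.43. An average of both LPS comparisons, likewise added after they had been seen, called 5 of the 10 genes higher and 2 lower, beside 27.7% of all genes called higher and 27.7% called lower. Beyond Msr1, Marco, Axl and Scarb1 it called Mertk higher (log2 1.75 ± 0.38, adjusted p = 0.00529), Scarb2 higher (0.28 ± 0.08, adjusted p = 0.0217) and Gas6 lower (-0.50 ± 0.15, adjusted p = 0.0214). The call of Scarb2 was lost in 6 of 8 fits with 1 library left out (adjusted p up to 0.108), without the low-count filter (0.194) and with upper-quartile factors (log2 0.02, adjusted p = 0.803), and with library totals alone Scarb2 was called lower (-0.28, adjusted p = 0.0131). The call of Gas6 was lost in 4 of 8 such fits, those without control replicate 1, LPS replicate 3, IL-4 replicate 1 or IL-4 then LPS replicate 3 (adjusted p up to 0.0693). With the replicate block the average also called Stab1 lower (-0.39, adjusted p = 0.00165), beside 65.5% of all genes called.

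The counts of the lists that follow stand beside 21.8% of all tested genes called higher and 18.6% lower after LPS, and 20.7% and 18.6% in the IL-4 arm. List counts by library totals alone stand beside 1547 of all 12234 tested genes higher and 5745 lower after LPS, and 1546 and 5321 in the IL-4 arm. Those with the replicate block stand beside 3453 higher and 3121 lower, and 3182 and 3151. Other scavenger receptors with an entry in the tested table numbered 12. After LPS 5 of them rose and 0 fell, and in the IL-4 arm 5 rose and 1 fell; their median log2 difference was 0.45 and 0.35. With library totals alone these counts were 3 higher and 4 lower, and 4 and 4, and with the replicate block 6 and 3, and 6 and 2. With 1 library left out the number higher ran from 3 to 5 in each arm and the number lower from 0 to 1 and from 0 to 2. Olr1, a receptor for oxidised lipoprotein, had 0 and 11 reads in control replicates 1 and 3, 244 and 136 in LPS, 16 and 35 in IL-4 and 386 and 253 in IL-4 then LPS. It was called higher with LPS in both arms (adjusted p = 0.00122 and 0.00189), but passed the low-count filter through the libraries where it was high, and its log2 value without IL-4, 5.65 ± 0.83, rests on the 11 control reads and ran from 4.53 to 10.9 with 1 library left out. Ssc5d, also among those called higher in both arms, had 5 and 5 reads in control and 35 and 17 in LPS. It had 9 and 10 reads in IL-4 and 26 and 26 in IL-4 then LPS. As Ssc5d passed the filter through the libraries with LPS, little but a rise could be called for it. Cd5l, a secreted scavenger receptor cysteine-rich protein of macrophages, was the one gene of the list called for IL-4, with a log2 difference of -1.94 ± 0.17 without LPS (adjusted p = 0.00748) and of -2.20 ± 0.17 before it (adjusted p = 0.00346). The call of Cd5l was lost without any 1 of the 4 libraries of the first comparison (adjusted p up to 0.0866), and that of the second without IL-4 then LPS replicate 1 (0.0593).

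Among 17 tested bridging molecules and further phosphatidylserine receptors, 2 rose and 4 fell after LPS, and as many in the IL-4 arm; with library totals alone 2 rose and 9 fell in each, and with the replicate block 4 rose and 6 fell, and 2 and 6. With 1 library left out 2 rose in each fit and arm, and those lower ran from 3 to 5 and from 3 to 4. Tyro3, the kinase related to Mertk and Axl, had 2 and 0 reads in control replicates 1 and 3, 35 and 34 in LPS, 5 and 0 in IL-4 and 54 and 23 in IL-4 then LPS. It was called higher with LPS in both arms (adjusted p = 0.00580 and 0.00819) and also passed the filter through the libraries where it was high. Itgb3, the beta chain of the integrin that binds bridged apoptotic cells, fell by 2.28 ± 0.25 on the log2 scale after LPS (adjusted p = 0.000273), and Cd300a, an inhibitory phosphatidylserine receptor, fell by 2.14 ± 0.42 (adjusted p = 0.00508). Itgav, the partner chain of Itgb3, rose by 2.24 ± 0.31 in the IL-4 arm (adjusted p = 0.000951). All of these moved in the same direction in both arms. Mean Itgav went from 100.2 CPM in control to 341.1 in LPS, and from 78.97 in IL-4 to 373.5 in IL-4 then LPS. In the same groups mean Itgb3 went from 102.5 to 21.15 and from 151.8 to 48.27 CPM, and Cd300a from 327.2 to 74.06 and from 307.4 to 65.11.

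Of 19 tested engulfment signalling genes, 4 rose and 3 fell after LPS and 4 rose and 4 fell in the IL-4 arm, and of 18 tested genes of phagosome maturation and LC3-associated phagocytosis, 3 rose and 6 fell, and 4 rose and 6 fell. With library totals alone the engulfment counts were 2 higher and 12 lower, and 1 and 9, and the phagosome counts 2 and 12 in each arm. With the replicate block they were 6 and 3, and 7 and 4 for engulfment, and 6 and 9, and 5 and 9 for the phagosome. With 1 library left out no fit reached the 4 engulfment genes higher after LPS: they ran from 2 to 3 there and from 2 to 4 in the IL-4 arm, and those lower were 3 in each fit and 3 to 4. The phagosome genes ran from 2 to 4 higher and 5 to 6 lower after LPS, and from 2 to 3 and 3 to 6 in the IL-4 arm. Abl1, a kinase of the cytoskeleton, fell by 1.39 ± 0.14 after LPS (adjusted p = 0.000212), and the exchange factor Vav3 rose by 1.30 ± 0.21 (adjusted p = 0.00203). Rubcn, a protein needed for LC3-associated phagocytosis, fell by 1.15 ± 0.23 (adjusted p = 0.00592), while Atg16l1 of the LC3 conjugation machinery rose by 1.36 ± 0.12 (adjusted p = 0.000104).

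The list of lipid-sensing nuclear receptors and cholesterol efflux, which also holds genes of other kinds such as Acat1 and Ncoa4, had the most genes called lower of the 6 lists. Of 17 tested, 1 rose and 7 fell after LPS, and 1 rose and 8 fell in the IL-4 arm, with medians of -0.52 and -0.62. The efflux transporters in it went apart. Mean Abca1 went from 88.6 CPM in control to 162 in LPS, and from 54.8 in IL-4 to 94.5 in IL-4 then LPS. Mean Abcg1 went from 184 to 149 and from 255 to 166 CPM in the same groups. With library totals alone 0 rose and 14 fell in each, and with the replicate block 3 rose and 12 fell, and 1 and 10. With 1 library left out 0 to 1 rose in each arm, and 6 to 8 and 5 to 8 fell. After LPS Rxra fell by 2.66 ± 0.24 (adjusted p = 0.000104), Pparg fell by 2.25 ± 0.36 (adjusted p = 0.00184) and Soat1, which esterifies cholesterol, fell by 1.96 ± 0.15 (adjusted p = 5.77e-05). Among 10 tested genes of receptor shedding and do-not-eat-me signals, 5 rose and 1 fell after LPS and 4 rose and 3 fell in the IL-4 arm. Rhbdf1, among those called higher in both arms, had 5 and 5 reads in control and 47 and 26 in LPS. It had 11 and 10 reads in IL-4 and 40 and 46 in IL-4 then LPS, and passed the low-count filter through the libraries with LPS. By library totals alone 4 rose and 3 fell in each arm, and with the replicate block 6 rose and 3 fell in each. With 1 library left out 4 to 5 rose in each arm, and 1 to 2 and 1 to 3 fell. Rhbdf2, which carries the Mertk-cleaving protease Adam17 to the surface, rose by 2.83 ± 0.22 (adjusted p = 5.56e-05) and 2.60 ± 0.22 (adjusted p = 7.93e-05), from 68.7 CPM in control to 489 in LPS and from 68.8 in IL-4 to 419 in IL-4 then LPS.

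**Figure D4:**
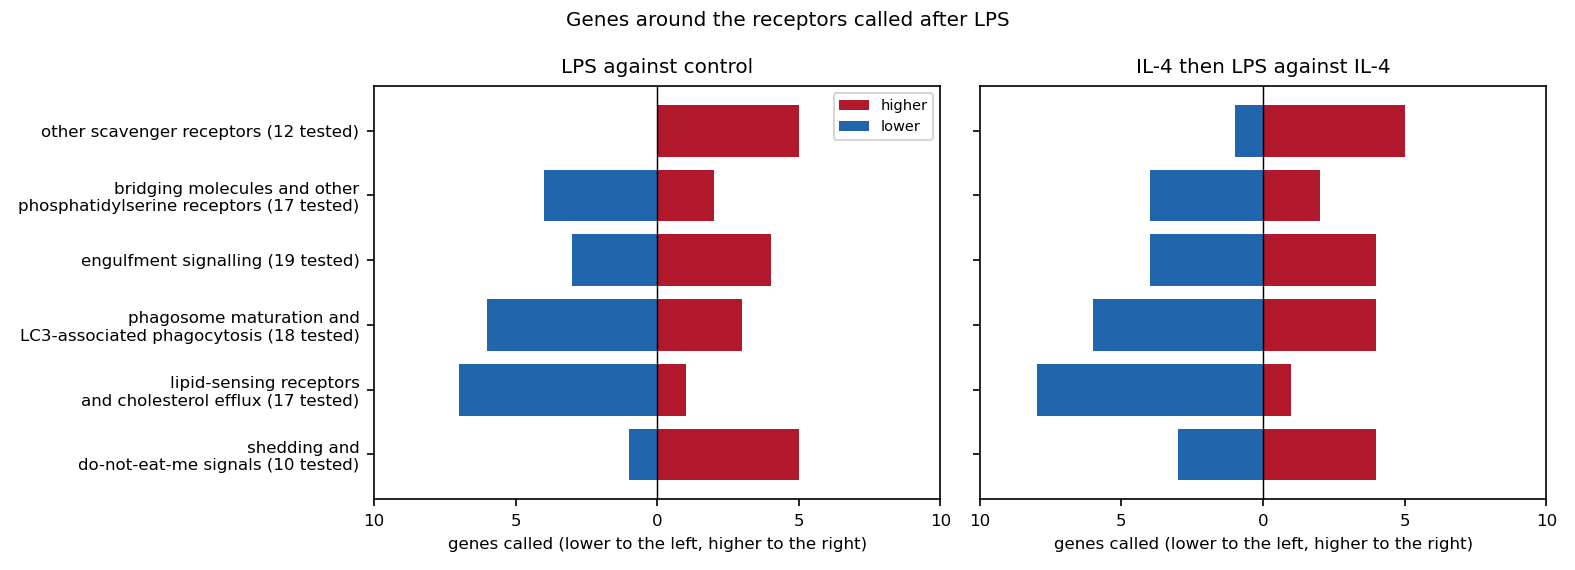
Number of genes called lower (to the left) and higher (to the right) with LPS in 6 lists of genes around the receptors, without IL-4 (left panel) and after IL-4 (right panel). The list of lipid-sensing receptors and cholesterol efflux has 7 and 8 genes lower against 1 higher. The list of other scavenger receptors has 5 higher in each panel, among them Olr1 and Ssc5d, which had few reads in control libraries.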

How the data were processed

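BMDM RNA was sequenced in 8 libraries of 4 groups. The authors deposited 1 table of raw counts per gene; HISAT2, HTSeq and StringTie and the build mm10 are named in the submitters' processing notes, without versions or a strand setting. The table holds 6 further count columns that match no sample here and were not used. Positions in the table equal those of GENCODE M21 for all 10 genes, and promoter windows come from RefSeq (GRCm38.p6), which held 8 of the 10 genes, not Msr1 and Scarb1.

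Genes were kept by edgeR's filterByExpr (12234 of 54532), scaled by TMM, and fitted with edgeR 4.0.16 in R 4.3.3 (quasi-likelihood test, 1 mean per group, all 8 libraries, 4 residual degrees of freedom). Adjusted p is Benjamini-Hochberg over all tested genes, and a gene is called under 0.05. The SE of a log2 fold change was obtained by dividing it by the root of the test's F statistic. The labels do not say that the 2 libraries of a group came from separate mice or cultures. Xist and Ddx3y reads mark number 1 as female and number 3 as male, so the 2 came from different mice. How many mice gave each library is not stated. The p-values measure only the spread between these libraries, and that spread includes the difference in sex. Total counts of 7924932 to 9431852 limit scarce genes such as Marco. On simulated counts for LPS against control, 47% of 100 genes changed 2-fold and 99% of 100 changed 4-fold were recovered, with 0.0939% of unchanged genes called among 12234. The simulation changed only those genes, gave all genes 1 dispersion and held no replicate effect. Far more genes were called in the LPS data, so these rates do not give the recovery there.

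Replicate numbers 1 and 3 recur in each group, and the labels do not say what they mark. The model leaves the numbers out. Deviations from the group means of same-numbered libraries correlated at r from 0.375 to 0.589 in all 6 pairs of groups. Same-numbered libraries thus shared a shift in these data, which the labels do not explain. Calls, list counts and figures still come from the model without the number, unless another setting is named. Values with the number as a block are given beside a result where the block changes the call. Alternatives were a replicate block, other scalings, no low-count filter, DESeq2 1.42.0, only the groups compared, and each library left out. The 10 genes, the lists and the marker lists were chosen with earlier results of these data known. Named genes are the 10 members, at most 3 called genes per list and comparison with the largest log2 fold change, and the 3 genes most like each called member.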

Additional observations from a re-analysis of the deposited data

How the results depend on the processing

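With the replicate number as a block, which tests pairing by number, LPS against control called 5 of the 10 genes higher and 3 lower, IL-4 against control 1 and 2 (288 genes in all), IL-4 then LPS against LPS 1 and 3 (281 genes), and IL-4 then LPS against IL-4 5 and 3. The block called 1 gene for the difference between LPS responses, and 5 of the 10 genes lower and 794 genes in all for the average IL-4 effect. The other calls of the 10 genes were unchanged under the block.

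Library totals alone called 6 of the 10 genes lower after LPS and 4 lower in the IL-4 arm. Of all 12234 tested genes, 5745 and 5321 were called lower there. For the average IL-4 effect they called 1 lower, beside 27 of all genes, and for the average LPS effect 6, beside 6959. Upper-quartile factors called 3, 3 and 4 lower for LPS, the IL-4 arm and the average LPS effect. Beside these stood 3542, 3426 and 4897 of all genes. No low-count filter called 2 lower after LPS and in the IL-4 arm, beside 2749 and 2730 of 21068 genes. It called 1 higher and 4 lower for IL-4 against control (360 genes) and 1 and 2 for IL-4 then LPS against LPS (397 genes). For the difference it called 53 genes, and for the average IL-4 effect 5 of the 10 lower and 709 genes. DESeq2 called 1 higher and 2 lower in each IL-4 comparison (110 and 119 genes), 5 genes for the difference and 318 for the average IL-4 effect. With only the groups compared, 5 genes were called for IL-4 then LPS against LPS, and 2 members lower in the IL-4 arm.

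Signs turned as follows on the log2 scale. With library totals alone, Scarb2 was -0.34 after LPS, -0.22 in the IL-4 arm and -0.28 in the average, and Cd68 -0.53, -0.42 and -0.48, and 0.0365 for IL-4 before LPS; the differences between LPS responses were 0.0517 for Scarb1 and 0.0308 for Gas6. With upper-quartile factors Scarb2 was -0.0029 after LPS, and Cd68 -0.19 after LPS, -0.15 in the IL-4 arm, -0.17 in the average and 0.0060 for IL-4 before LPS. Cd68 was 0.0019 there with only the groups compared, and Cd36 was 0.0197 in the IL-4 arm with DESeq2 and with its size factors in edgeR. The cause was not tested.

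With each library left out in turn, members called higher ran from 2 to 4 and lower from 0 to 2 after LPS, from 2 to 4 and from 0 to 1 in the IL-4 arm, from 0 to 1 and from 0 to 1 for the average IL-4 effect, and from 4 to 5 and from 1 to 2 for the average LPS effect. Genes called ran from 3375 to 4775, from 4 to 9 (IL-4), from 6 to 12 (IL-4 before LPS), from 3116 to 4799 (IL-4 arm) and from 15 to 42 (average IL-4 effect). Uncalled values that changed sign ran as follows: Cd68 from -0.0655 to 0.20 after LPS, -0.29 to 0.10 with IL-4, -0.25 to 0.17 for IL-4 before LPS, -0.12 to 0.32 in the IL-4 arm, -0.20 to 0.29 for the difference, -0.15 to 0.0590 for the average IL-4 effect and -0.0259 to 0.18 for the average LPS effect. Msr1 ran from -0.0164 to 0.62 with IL-4 and from -0.13 to 0.19 for its average. For IL-4 before LPS, Marco ran from -1.57 to 0.87, Scarb1 from -0.0529 to 0.38 and Mertk from -1.15 to 0.57. Cd36 ran from -0.0473 to 0.0664 in the IL-4 arm. For the difference, Scarb1 ran from -0.22 to 0.20, Stab1 from -0.16 to 0.34, Mertk from -0.34 to 1.38, Axl from -0.37 to 0.0840 and Gas6 from -0.24 to 0.22. Low depth limits Marco most, at 3 to 210 reads a library.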

Other observations

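Genes whose log2(CPM + 1) followed a called receptor most closely over the 8 libraries, among 8123 tested genes with a mean of at least 10 CPM, are given as a description, since the libraries share the LPS grouping. They were Ehd4 (Pearson r = 0.998), Bloc1s6 and Anxa7 for Msr1, Tmem63a (0.986), Kat5 and Irak3 for Marco, and Acadm (0.995), Edem2 and Hip1 for Scarb1. Tmem68 (0.994), Gabpa and Rab5a were closest to Axl, and Efcab14 (0.988), Apaf1 and Nfil3 to Mertk.

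The libraries numbered 1 and 3 differed for Mertk and Marco, a pattern picked out after the values were seen. Mertk was higher in replicate 1 by 2.74-fold in LPS and 2.52-fold in IL-4 then LPS, against 1.32-fold in control and 1.10-fold in IL-4. Of 8132 genes with a mean of at least 10 CPM, 38 (0.467%) had replicate 1 that far above replicate 3 in both LPS-treated groups. The bar in both groups was the smaller of the Mertk ratios there, taken with a small constant added to each level. Marco was higher in replicate 3 by 5.45-fold in LPS, 2.16-fold in IL-4 then LPS, 5.29-fold in control and 1.69-fold in IL-4. Replicate 3 lay above replicate 1 by the smaller of the Marco ratios in both LPS-treated groups for 60 of 12234 genes (0.490%). That bar is the one in IL-4 then LPS, so these genes need not reach the 5.45-fold of Marco in LPS. The libraries numbered 1 held 2936 to 4465 reads of Xist and 0 of Ddx3y, and those numbered 3 held 0 reads of Xist and 543 to 643 of Ddx3y. Number 1 was thus female and number 3 male in every group, so sex cannot be told apart from any other difference between the numbers. Its part in the values of Mertk and Marco was not tested.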
